A study of Saccharomyces cerevisiae with 6 samples.

Results

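Expression of 10 genes of *Saccharomyces cerevisiae* that make or remodel the β-1,3-glucan of the cell wall was followed across 6 arrays: the glucan synthase genes *FKS1*, *GSC2* and *FKS3*, the glucan elongase genes *GAS1*, *GAS3* and *GAS5*, the glucanase-type wall enzyme genes *BGL2* and *EXG1*, and the chitin-glucan transglycosylase genes *CRH1* and *UTR2*. They were selected by gene symbol, each was read by 1 probe set, and they are 10 of the 5449 *S. cerevisiae* genes measured. In 3 samples, RNA was purified with the MagExtractor kit after cells had been held for 20 min at 25 °C with zymolyase, a preparation whose main activity digests β-1,3-glucan (zymolyase arrays). In the 3 control samples, RNA of cells without the enzyme was purified with the FastRNA Pro Red kit (control arrays). All 6 samples were labelled BY4743, a diploid of both mating types (MATa/α) with the alleles his3Δ1, leu2Δ0, ura3Δ0, lys2Δ0 and met15Δ0, and had grown for 2 days at 25 °C in rich YPD medium that also held SDS, at 0.01% per the design text. SDS is a detergent that itself stresses the wall, and both groups received it. Enzyme and kit changed together and cannot be told apart, so each difference below is that of both. Whether the samples of a group were separate cultures is not stated, so p-values here describe sample-to-sample spread that may be technical.

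β-1,3-glucan is the main load-bearing polymer of the yeast wall. Glucan synthase, an integral plasma membrane enzyme with Fks1 or Gsc2 as its catalytic subunit and the GTPase Rho1 as its regulatory subunit, extrudes linear chains that enzymes in the wall then lengthen, trim, branch and join to chitin and β-1,6-glucan. *FKS1* is known as the synthase gene of growing cells on glucose, and *GSC2* as the one induced by wall stress, glucose depletion and mating. Gas proteins and the Crh family are held at the cell surface by lipid (GPI) anchors, whereas Bgl2 and Exg1 are secreted.

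The labelled strain was checked against marker genes before the results. The 4 genes specific to alpha cells, with *SAG1* and *STE3* among them, had signals of 1581 to 6754 on zymolyase arrays and 1485 to 7412 on control arrays. The 7 a-specific genes, *STE2* and *MFA1* among them, had 8.2 to 133.8 on zymolyase and 8.0 to 90.1 on control arrays. A diploid of both mating types represses both sets, so the high alpha-specific signals went against the label and the low a-specific ones did not. The signals of *LEU2* (mean 401.4 on zymolyase and 684.4 on control arrays) and *URA3* (mean 2648 on zymolyase and 1956 on control arrays), which the labelled genotype lacks, also went against the label, in both groups alike. Array 1 of each group stood apart from its other 2 arrays, so results are also given without both arrays numbered 1. Across genes its deviations from the group mean correlated with theirs at -0.75 to -0.70. Those of arrays 2 and 3 correlated at 0.04 (zymolyase) and 0.06 (control). Such deviations sum to 0 in each group, which by itself pulls correlations below 0, so the contrast counts and not the sign. As a background level, the 95th percentile of the probe sets for the array's second yeast species lay between 8.3 and 10.9 on each array. All of the 10 genes but one lay far above it, at 1307 or more on every array, and the exception, *FKS3*, was dim, at 26.0 to 59.4.

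With zymolyase and MagExtractor 4 of the 10 genes fell, 0 rose, and the other 6 did not reach the threshold. *BGL2* fell 1.93-fold, *CRH1* 1.39-fold, *GAS1* 1.35-fold and *EXG1* 1.31-fold (limma on log2 signal, Benjamini-Hochberg adjusted p under 0.05 over all 5449 genes). Over all genes 42.5% passed, with 20.0% lower and 22.5% higher. The median log2 change was -0.23 for the 10 genes and 0.04 for all genes, and -0.42 against 0.02 once a trend with coding length, described further on, was removed. The zymolyase and control values did not overlap for 6 of the 10 genes, against 52.9% of all genes. The count of 4 was not stable. Without both arrays numbered 1 only *BGL2* passed, although 28.3% of all genes were lower and 32.6% higher in that fit. With any single array left out, 1 or 2 of the 10 genes passed, where 740 to 1175 of all genes were lower. With the replicate number as a block, a setting in which 31.2% of all genes rose and 27.3% fell, 5 were lower (*FKS1* besides the 4) and 1 was higher (*GSC2*).

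**Figure D1:**
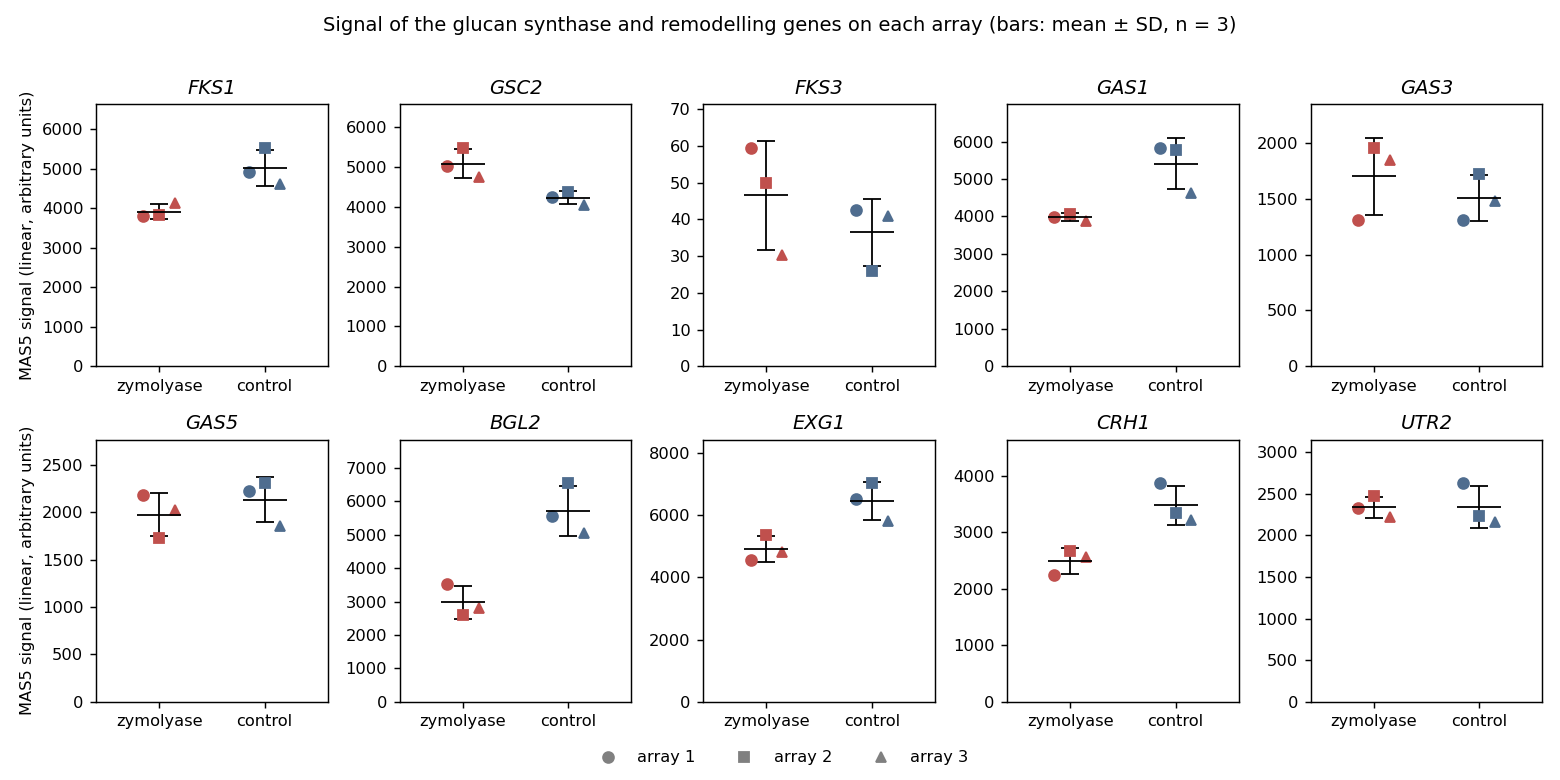
MAS5 signal (linear scale, arbitrary units, axis from 0) of each gene on each of the 3 zymolyase arrays (red, left) and 3 control arrays (blue, right); the marker shape is the array number and bars are mean ± SD, n = 3. The groups lie apart for *FKS1*, *GSC2*, *GAS1*, *BGL2*, *EXG1* and *CRH1*, with *GSC2* the one of these that is higher on zymolyase arrays.

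Of the synthase genes, *FKS1* was lower and *GSC2* higher on every zymolyase array than on any control array. *FKS1* (YLR342W) had signals of 3790, 3825 and 4127 on zymolyase arrays 1 to 3, against 4926, 5521 and 4612 on control arrays 1 to 3. Its log2 change, always zymolyase minus control here, was -0.36 (SE 0.13, 95% interval -0.65 to -0.06, adjusted p = 0.0567), just short of the threshold. *GSC2* (YGR032W) had 5034, 5472 and 4736 on zymolyase arrays and 4244, 4379 and 4054 on control arrays, a change of 0.26 (SE 0.12, interval -0.02 to 0.55, adjusted p = 0.120). Since neither gene's groups overlap, any pairing of the arrays gives the same direction in 3 of 3 pairs, so that count adds no evidence. With the replicate block both passed, *FKS1* as lower (adjusted p = 0.0232) and *GSC2* as higher (adjusted p = 0.0348).

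The third gene of the family, *FKS3* (YMR306W), which encodes a related protein linked to the spore wall, was near the lower end of what the arrays recorded. Its signals were 59.4, 49.9 and 30.4 on zymolyase arrays and 42.6, 26.0 and 40.8 on control arrays. The groups overlapped, and the coefficient of variation was 31.7% on zymolyase and 25.0% on control arrays, the highest of the 10 genes. Its change of 0.33 had an interval from -0.47 to 1.13 (adjusted p = 0.473), which holds both falls and rises, so the direction was not settled. It was 0.10 without control array 2 and 0.61 without zymolyase array 3. *FKS3* lies directly beside *GAS1* on the chromosome, with 0 genes between them, and *GAS1* was bright where *FKS3* was dim. No other pair of the 10 is adjacent, the next closest being *EXG1* and *FKS1* with 45 genes between them (annotation of assembly R64).

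*GAS1* fell, and its relatives *GAS3* and *GAS5* did not pass. Gas enzymes cut a β-1,3-glucan chain and join the piece to another chain, and Gas1 is the major one of vegetative cells. *GAS1* (YMR307W) had signals of 3992, 4077 and 3882 on zymolyase arrays and 5826, 5774 and 4639 on control arrays, with no overlap. The change was -0.43 (SE 0.14, adjusted p = 0.0359), lower in 3 of 3 same-numbered pairs, which the lack of overlap already requires. The zymolyase values lay close together, with a coefficient of variation of 2.45% against 12.4% on control arrays. The call was kept without control array 3 (adjusted p = 0.0268) and lost without any 1 of the other 5 arrays (up to 0.111, without zymolyase array 3).

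*GAS3* (YMR215W), a less characterised member, had 1307, 1952 and 1844 on zymolyase arrays and 1312, 1725 and 1475 on control arrays. Array 1 was the lowest in both groups, at nearly the same signal, and the groups overlapped (change 0.17, interval -0.29 to 0.62, adjusted p = 0.526). *GAS5* (YOL030W), active like *GAS1* in vegetative cells, had 2181, 1729 and 2023 on zymolyase arrays and 2230, 2306 and 1862 on control arrays. These also overlapped (change -0.11, interval -0.47 to 0.25, adjusted p = 0.598).

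*BGL2* (YGR282C) showed the largest change of the 10. It encodes an abundant wall protein that cuts β-1,3-glucan internally and transfers the fragment to another chain. Its signals were 3517, 2593 and 2812 on zymolyase arrays, against 5578, 6539 and 5048 on control arrays. The highest zymolyase value was far below the lowest control value. The change was -0.95 (SE 0.17, adjusted p = 0.00377). This was the one call of the 10 that held under every alternative run, including each array left out in turn, with adjusted p between 0.000120 and 0.0191.

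*EXG1* (YLR300W), the major secreted exo-β-1,3-glucanase, which removes glucose from chain ends, had 4549, 5362 and 4824 on zymolyase arrays and 6531, 7021 and 5807 on control arrays. The groups did not overlap, and the change of -0.39 (SE 0.14) passed narrowly, at an adjusted p of 0.0477. That call was lost without any single array, with adjusted p between 0.0513 and 0.132, and with the length trend removed (0.0807).

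The enzymes that attach chitin to glucan parted. *CRH1* (YGR189C) had 2237, 2673 and 2568 on zymolyase arrays and 3865, 3342 and 3224 on control arrays, with no overlap. Its change was -0.48 (SE 0.14, adjusted p = 0.0275). The call was kept without zymolyase array 2 (adjusted p = 0.0486) and lost without any 1 of the other 5 arrays (up to 0.0724). *UTR2* (YEL040W, also called *CRH2*) had 2326, 2475 and 2218 on zymolyase arrays and 2625, 2229 and 2163 on control arrays. The zymolyase values lay inside the range of the control values, and the change was 0.0044 (interval -0.31 to 0.32, adjusted p = 0.982).

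**Figure D2:**
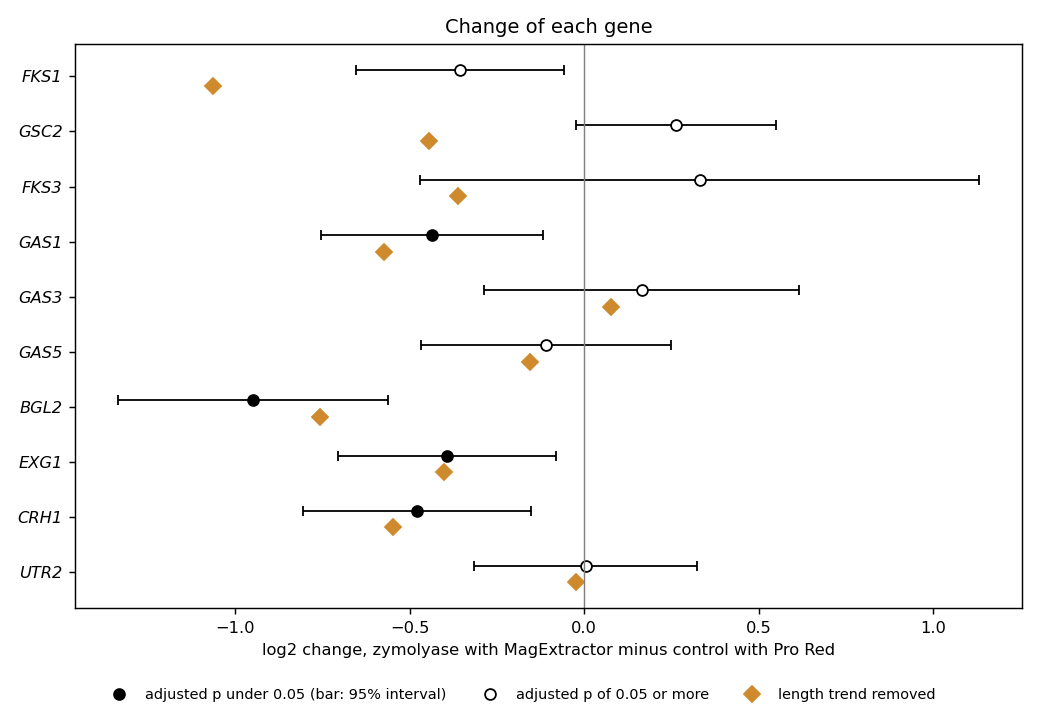
Log2 change of each gene, zymolyase minus control: circles with 95% intervals from limma (filled where the adjusted p is under 0.05), and diamonds for the change with the length trend removed. *BGL2* is lowest at -0.95, and the 3 synthase genes at the top move left by about the same amount when the trend is removed.

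Scaling bears on these small changes. When each array was centred on its median gene, all changes shifted by -0.16. Genome-wide calls were then 951 higher and 1463 lower, so that 39.4% of calls were rises in place of 52.8%. On that scale *FKS1* passed as well (-0.52, adjusted p = 0.0310), 5 of the 10 genes were lower, *GSC2* stood at 0.10 and *UTR2* at -0.16 (adjusted p = 0.625 and 0.433). Quantile normalization moved the values the other way, with *FKS1* at -0.19 (adjusted p = 0.146) and *GSC2* at 0.39 (adjusted p = 0.00495).

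A ratio of 2 genes on one array does not depend on a factor common to the whole array, such as that of median centring. For this reason 7 pairs within the 3 families were compared. Quantile normalization can still alter such a ratio, and moved the change of *GAS1* relative to *GAS3* from -0.60 to -0.44. *FKS1* changed by -0.62 relative to *GSC2* on the log2 scale (SE 0.10). The log2 ratio of their signals was -0.41, -0.52 and -0.20 on zymolyase arrays and 0.22, 0.33 and 0.19 on control arrays, so the groups lay well apart. An exact two-sided permutation test gave p = 0.1, the smallest that 3 against 3 arrays allow (0.175 adjusted over the 7 pairs). The difference ranged from -0.71 to -0.55 over all alternatives. With p at its smallest possible value, this test could not settle whether the 2 genes changed unequally. Of all single genes, 52.9% also had groups that did not overlap. How often the ratio of any 2 genes lies apart in this way was not tested, here or for the pairs below. These levels belong to different probe sets, so the ratio bears on unequal change and not on which gene is more abundant.

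*CRH1* changed by -0.48 relative to *UTR2* (SE 0.08). Its log2 ratio to *UTR2* was -0.06, 0.11 and 0.21 on zymolyase arrays and 0.56, 0.58 and 0.58 on control arrays. The control ratios were nearly equal and all zymolyase ratios were lower (exact permutation p = 0.1, adjusted 0.175). *GAS1* changed by -0.60 relative to *GAS3* (SE 0.24) and by -0.33 relative to *GAS5* (SE 0.11), without overlap in either pair and with the same p. The 3 remaining pairs overlapped. *GAS3* minus *GAS5* was 0.28 (SE 0.30, exact permutation p = 0.4), *FKS1* minus *FKS3* -0.69 (SE 0.44, p = 0.3 by the same exact test), and *GSC2* minus *FKS3* -0.07 (SE 0.36, exact permutation p = 0.9). Each of these 3 varied with single arrays. *GAS3* minus *GAS5* was 0.071 without zymolyase array 2 and 0.53 without zymolyase array 1, *FKS1* minus *FKS3* was -0.39 without control array 2 and -1.01 without zymolyase array 3, and *GSC2* minus *FKS3* took the other sign, 0.19, without control array 2.

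**Figure D3:**
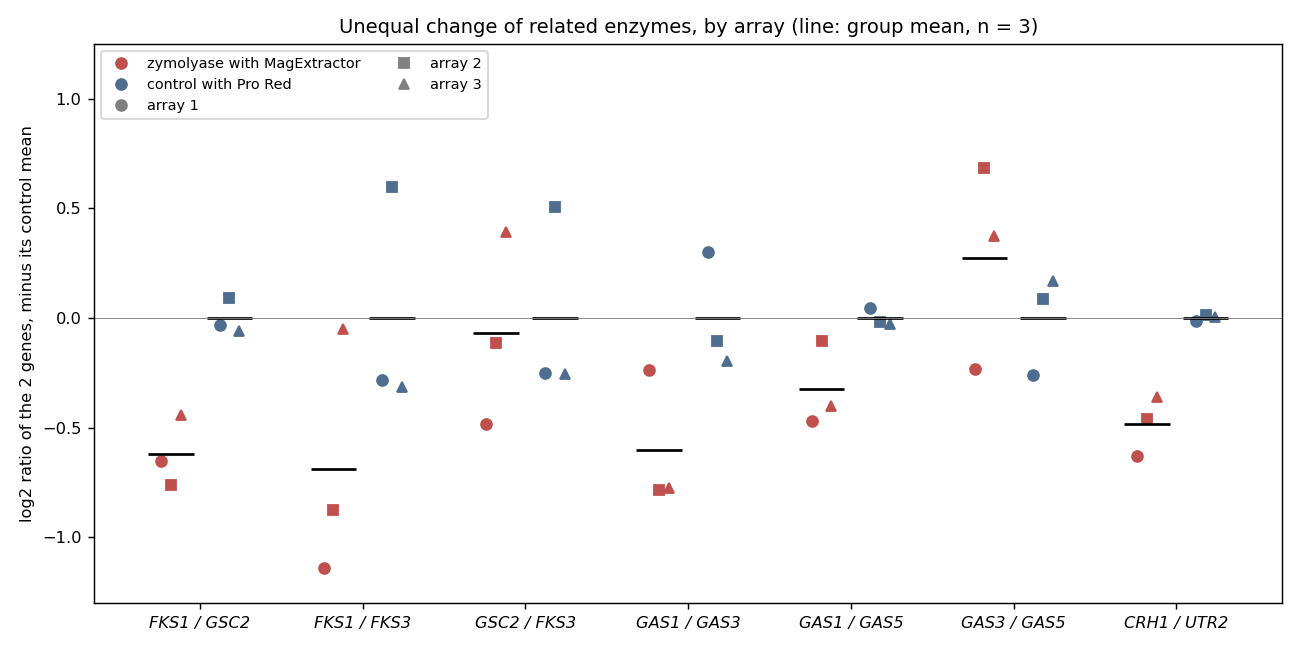
Log2 ratio of the signals of related genes on each array, less the mean of that ratio on the control arrays; red, zymolyase arrays, blue, control arrays, marker shape, array number, line, group mean (n = 3). The groups lie apart for *FKS1* to *GSC2* (difference -0.62), *GAS1* to *GAS3* (-0.60), *GAS1* to *GAS5* (-0.33) and *CRH1* to *UTR2* (-0.48).

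Coding length moved with the change over the whole genome, and the 10 genes differ widely in it. The 3 synthase genes have 5358 to 5688 bases and lie in the longest of 10 equal classes of genes, and the other 7 have 942 to 1680 bases. Among the 545 longest genes the median log2 change was 0.60, with 53.4% higher and 4.04% lower. *FKS1* was the 40th lowest of the 545 genes of that class, *GSC2* the 167th and *FKS3* the 188th. The 100 genes nearest in length to *FKS1* had a median change of 0.65, against its own -0.36. For *BGL2*, with 942 bases, the corresponding median was -0.22, against -0.95.

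With this length trend subtracted on each array, *FKS1* changed by -1.06 (SE 0.14, adjusted p = 0.00258). *GSC2* took the other sign, at -0.45 (SE 0.13, adjusted p = 0.0335), and so did *FKS3*, at -0.36 (adjusted p = 0.418). *BGL2*, *GAS1* and *CRH1* kept their calls, at -0.76, -0.57 and -0.55, and *EXG1* at -0.40 did not. In all 5 genes were then lower and 0 higher, where over all genes 19.7% were lower and 18.4% higher. *FKS1* and *GSC2* are of nearly equal length, and their difference was -0.62 with the trend removed as without it. *CRH1* against *UTR2* (-0.52) and *GAS1* against *GAS3* (-0.65) also stayed within the spread between arrays.

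**Figure D4:**
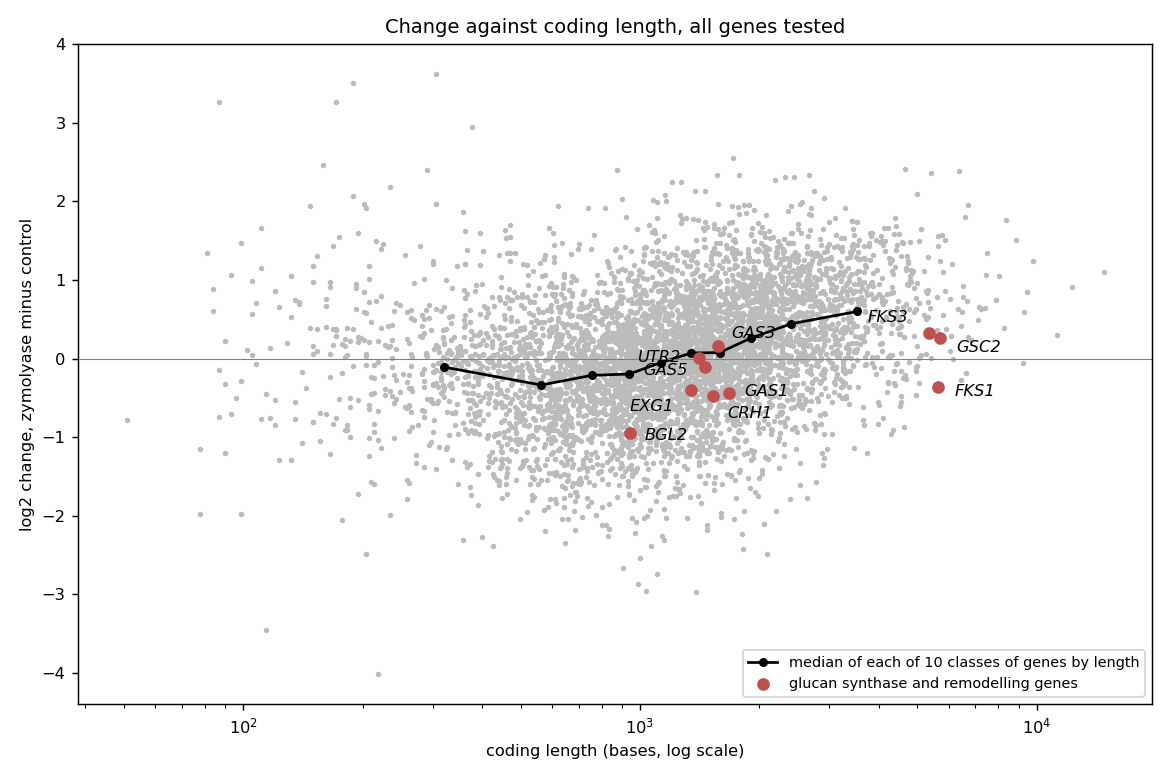
Log2 change against coding length (log axis) for all 5449 genes (grey), the median of each of 10 classes of genes by length (black line), and the 10 glucan genes (red). The synthase genes lie below the median of their length class, 0.60, and *BGL2*, *CRH1*, *GAS1* and *EXG1* below those of theirs.

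The signal of the array's own control genes at their 3′ over their 5′ end also differed between the same arrays. Averaged over 8 yeast genes, its log2 was 2.19, 2.85 and 2.75 on zymolyase arrays and 0.58, 0.99 and 0.99 on control arrays, a difference of 1.74 (exact permutation p = 0.1). None of the 10 genes has probe sets at both ends, and the part of this ratio in their changes was not tested. Of 10 equal classes by mean signal, the brightest held 6 of the 10 genes, the next held 3, and the dimmest held *FKS3*. In the brightest class 24.2% of genes fell and 10.5% rose.

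The 14 other enzymes of β-1,3-glucan listed had 6 members that fell and 2 that rose, with a median of -0.22, where 20.0% of all genes fell and 22.5% rose. With the length trend removed 6 were lower and 1 higher, with a median of -0.34, where 19.7% of all genes were lower and 18.4% higher. *SCW10*, for a glucanase-like wall protein, had 2319, 2205 and 2324 on zymolyase arrays and 4174, 3535 and 3403 on control arrays (-0.69, adjusted p = 0.00536). Its relative *SCW11* (-0.61, adjusted p = 0.0217), and *SUN4* and *SIM1* of the SUN family of wall proteins (-0.64 each, 0.0133 and 0.0230), also fell. The call of *SCW11* was lost without zymolyase array 2 or control array 2 or 3 (0.0530 to 0.0772), and that of *SIM1* without zymolyase array 2 or 3 or control array 2 (0.0533 to 0.0721). Without both arrays numbered 1, 8 fell and 2 rose, in a fit with 28.3% of all genes lower and 32.6% higher. Without zymolyase array 2 or without control array 2, 2 fell, where 740 and 816 of all genes were lower.

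The genes of that list that rose were *CRR1* and *GAS2*. *CRR1*, a relative of *CRH1* and *UTR2* that acts in the spore wall, was dim, at 72.1, 104.8 and 88.2 on zymolyase arrays and 31.3, 28.7 and 20.7 on control arrays. It rose 3.30-fold (log2 1.72, SE 0.27, adjusted p = 0.00263). *GAS2*, a relative of *GAS1* used in the spore wall, had 176.1, 226.2 and 223.7 on zymolyase arrays and 113.2, 145.6 and 143.4 on control arrays (0.64, adjusted p = 0.0313). That call was lost with the length trend removed (0.0811), with median centring (0.0851) and without any 1 of 5 arrays, zymolyase arrays 2 and 3 and the 3 control arrays (up to 0.113). Other genes of the list linked to sporulation did not pass, *GAS4* at -0.16 (adjusted p = 0.796) and *SPR1* at 0.73 (adjusted p = 0.136). Of 9 sporulation markers 0 rose and 1, *DIT1*, fell, where 22.5% of all genes rose and 20.0% fell. With the replicate block 2 rose, *SPS1* (0.87, adjusted p = 0.00904) and *SPR3* (0.77, adjusted p = 0.0367), and *DIT1* fell (adjusted p = 0.00627). In that fit 31.2% of all genes rose and 27.3% fell. The summed signal of the 9 markers was 363.3 to 397.3 on zymolyase and 318.4 to 364.1 on control arrays, and none was at 0. The part of sporulating cells in the rise of *CRR1* was not tested. In bulk RNA a change in the number of such cells and a change within each cell cannot be told apart.

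Regulators of glucan synthase moved in both directions. Among the 10 on the arrays 5 rose and 3 fell (median 0.28), where 22.5% of all genes rose and 20.0% fell. Without both arrays numbered 1, and likewise with the replicate block, 5 rose and 4 fell. Calls over all genes also grew in those fits. Without arrays 1, 32.6% rose and 28.3% fell, and with the block 31.2% rose and 27.3% fell. *RHO1*, for the synthase's GTPase subunit, had 3136, 3003 and 3150 on zymolyase arrays and 4362, 5822 and 4880 on control arrays, and fell 1.61-fold (-0.69, SE 0.14, adjusted p = 0.00716). With the length trend removed its adjusted p was 0.0700. Genes for proteins that act with Rho1 were among those that rose. *PKC1*, the kinase Rho1 activates, had 1070, 957.2 and 1021 on zymolyase arrays and 466.7, 287.7 and 297.6 on control arrays, a 2.97-fold rise (adjusted p = 0.00151). *TUS1*, an exchange factor that activates Rho1, rose 2.84-fold. On the log2 scale these rises were 1.57 and 1.51, and with the length trend removed 1.02 (adjusted p = 0.00643) and 0.91 (adjusted p = 0.0164).

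*SMI1*, a regulator of glucan synthesis also called Knr4, rose 1.98-fold. *BEM2*, a GTPase-activating protein that switches Rho1 off, rose 1.90-fold, but with the length trend removed changed by 0.18 (adjusted p = 0.317). *BAG7* and *LRG1*, of the same activity, fell 3.35-fold and 1.95-fold. *BAG7* was dim, at 35.1, 38.8 and 39.7 on zymolyase arrays and 126.4, 94.7 and 169.9 on control arrays. It is left out when the dimmest 25% of genes are dropped. The fall of *LRG1* (adjusted p = 0.0254) was lost without zymolyase array 2 or 3 or control array 1 (0.0524 to 0.0911). The list is long in sequence, with a median of 3255 bases against 1236 for all genes. With the trend removed 3 rose and 3 fell, where 18.4% of all genes rose and 19.7% fell, and the median was -0.25.

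The 9 genes of β-1,6-glucan, the polymer that links wall proteins to the β-1,3-glucan, had 5 that fell and 1 that rose, with a median of -0.60, against 20.0% and 22.5% of all genes. These are mostly short genes (median 942 bases), and with the length trend removed 4 fell and 0 rose, with a median of -0.33. In that fit 19.7% of all genes fell and 18.4% rose. *KRE9* had 1096, 816.1 and 1074 on zymolyase arrays and 2974, 2992 and 3006 on control arrays, a 3.03-fold fall (adjusted p = 0.00100). *KRE6* fell 2.31-fold, *KEG1*, which binds Kre6, 2.27-fold, and *SKN1*, the relative of *KRE6*, 1.81-fold. *KRE5* rose 1.63-fold (adjusted p = 0.0183). Its change was 0.09 with the length trend removed (adjusted p = 0.678), and its call was also lost without zymolyase array 3 or control array 2 or 3 (0.0554 to 0.0733). In the main fit each of the 4 named falls was larger in size than that of any β-1,3-glucan gene of the 10 other than *BGL2*. With the length trend removed this did not hold for *KEG1*, at -0.88 against -1.06 for *FKS1*. *KRE9*, *KRE6* and *SKN1* then stood at -1.35, -1.56 and -1.25. These comparisons of values were not tested. Without both arrays numbered 1, 5 fell and 1 rose, where 28.3% of all genes fell and 32.6% rose.

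**Figure D5:**
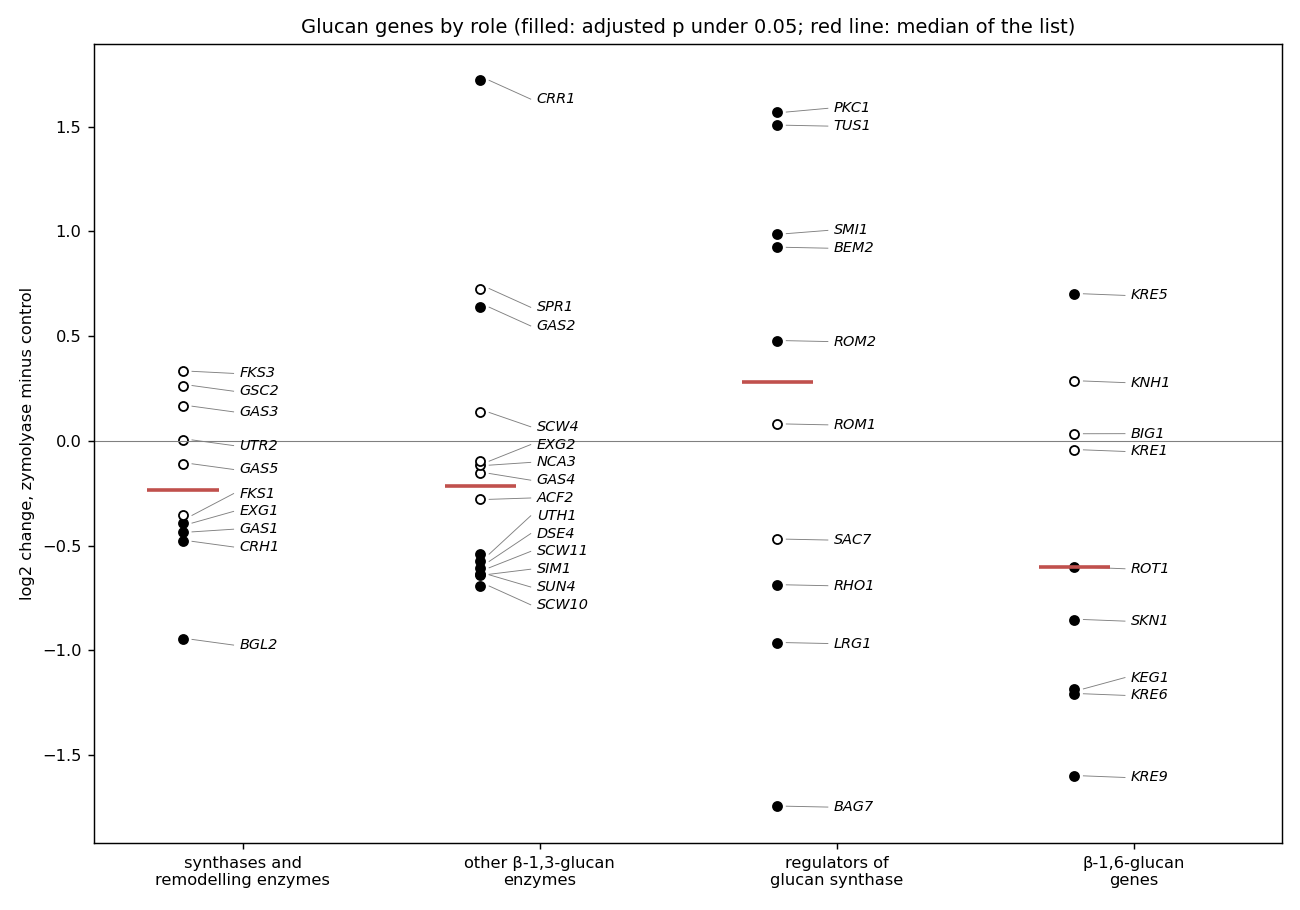
Log2 change, zymolyase minus control, of the 10 synthase and remodelling genes and of 3 related lists; filled circles have an adjusted p under 0.05 and red lines are medians (-0.23, -0.22, 0.28 and -0.60 from left to right). Falls outnumber rises in every list except the regulators.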

How the data were processed

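Total RNA (about 4 µg per sample, per the labels) was read on single-colour Affymetrix arrays. The deposited values are linear MAS5 signal intensity, one per probe set, as the submitters' processing notes name them. Version and settings of MAS5 are not given in the sources used here. The mean signal after trimming 2% at each end was 499.8 on every array, so arrays share a scale. Genes were named through the platform annotation, with symbols updated by gene identifier through the NCBI table of assembly R64. 5498 probe sets matched 5449 genes, and the brightest was used for 47 genes with several. Log2 signal was fitted over all genes with limma 3.58.1 (R 4.3.3; lmFit, eBayes, trend on intensity). Adjustment was by Benjamini-Hochberg, with a threshold of 0.05. The procedure was tested on simulated data. The length trend was removed by a lowess (span 0.3) of each array's deviations on log2 coding length (96.3% of protein-coding lengths are multiples of 3). The array number limits the precision.

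The genes, lists and alternatives were chosen with earlier results of these data known. All 10 genes were to be named, and from each other list up to 4 genes past the threshold in each direction. The labels give both groups numbers 1 to 3. Deviations of same-numbered arrays correlated at 0.49, 0.20 and 0.41, each over 0.1. The labels do not state a pairing, and the main fit did not pair the arrays. Same-numbered arrays were paired only in the alternatives with the replicate block, from the data alone. Unlike numbers reached similar values among arrays 2 and 3 (0.23 for control 2 with zymolyase 3, 0.20 for control 3 with zymolyase 2), so the numbers separate array 1 and not clearly 2 from 3. Arrays left out in turn, scaling, pseudocount, dim genes, probe set choice, trend and block were varied.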

Additional observations from a re-analysis of the deposited data

How the results depend on the processing

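The fall of *BGL2* held in 16 of 16 alternatives, from -1.11 to -0.76, and *GAS3* and *GAS5* stayed short of the threshold with their sign kept in all of theirs. With the replicate block *FKS1* (-0.36, adjusted p = 0.0232) and *GSC2* (0.26, adjusted p = 0.0348) passed, making 1 gene higher, and the block ended or added no other call of the 10. With the length trend removed *FKS1* was -1.06, *GSC2* -0.45, *FKS3* -0.36, *UTR2* -0.024 and *EXG1* -0.40 (adjusted p = 0.0807). Block and length trend together, chosen after seeing the data, gave the same changes and 6 genes lower (*FKS1* adjusted p = 0.000820, *GSC2* 0.00502). In that fit 27.7% of all genes were lower and 28.4% higher. Median centring gave *FKS1* -0.52 and *UTR2* -0.16. Quantile normalization gave *FKS1* -0.19 (adjusted p = 0.146) and *GSC2* 0.39 (adjusted p = 0.00495) and so 1 gene higher, where 21.2% of all genes were higher. Without an intensity trend *EXG1* (-0.39) and *GAS1* (-0.43) lost their calls (0.0701 and 0.0535), leaving 2 genes lower, where 19.5% of all genes were lower. With probe sets averaged *EXG1* lost its call (-0.39, 0.0534). Without both arrays numbered 1 *CRH1* was -0.33, *EXG1* -0.33 and *GAS1* -0.38 (0.0995, 0.224 and 0.120), leaving 1 gene lower, where 28.3% of all genes were lower.

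Over the fits without 1 array, *CRH1* ranged from -0.53 to -0.40, *EXG1* from -0.47 to -0.33, *GAS1* from -0.54 to -0.38, *FKS1* from -0.42 to -0.29, *GSC2* from 0.21 to 0.31, *FKS3* from 0.10 to 0.61, *GAS3* from 0.055 (without zymolyase array 2) to 0.34 (without zymolyase array 1), *GAS5* from -0.20 (without control array 3) to -0.016 (without zymolyase array 2), and *UTR2* from -0.049 to 0.090 (below 0, at -0.037, -0.028 and -0.049, without zymolyase array 2, control array 2 or control array 3). The count of lower genes ranged from 1 to 2, and 0 were higher. The 7 ratios of relatives, for which quantile normalization was added after seeing the data, and the 3′/5′ ratio moved by less than the spread between arrays in each alternative run on them. For the 3 overlapping pairs that spread is wide: *GSC2* minus *FKS3* ranged from -0.30 to 0.19 without 1 array and was 0.022 with 16 added to the signal and 0.015 without both arrays numbered 1. The cause of these shifts was not tested. *FKS3*, dim and left out when the dimmest 25% of genes are dropped, is limited by its signal over background.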
